A study of Mus musculus with 9 samples.

Results

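The untreated state of EHE17 cells is described here from 3 vehicle libraries of a series of 9. EHE17 is a mouse tumour cell line that the labels type as endothelial, with the genotype TC+/+ Cdkn2a -/-. In general knowledge, TC stands for the TAZ-CAMTA1 fusion of epithelioid haemangioendothelioma (EHE), a tumour of blood vessel lining cells, and Cdkn2a encodes cell cycle inhibitors. The vehicle cells received DMSO, and the other 6 libraries came from the same line after MGH-CP1 at 10 µM or dinaciclib at 300 nM for 16 h. Those libraries were not used. The groups share the line, the genotype and a growth medium with serum, heparin and endothelial growth supplement, so the libraries stand for a single cultured line.

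The members were the 720 genes listed in 2 gene tables of the authors' comparisons with vehicle, taken once each and ranked by their mean level in the vehicle libraries. One table, from the dinaciclib comparison, holds 251 genes with a tumour annotation, and the other, from MGH-CP1, holds 471. They share 2 genes, 1 of which is Bcl11b. The vehicle values took part in the authors' choice of these genes. Genes outside the tables were not analysed here, so a gene missing from them may be expressed at any level. Cdkn2a is not among the 720, and its deletion was not checked. The vehicle libraries hold 31852117, 34153170 and 40020833 counts, and the listed genes take 3.09 to 3.28% of them. Levels are FPKM, fragments scaled to gene length and to the total count of the library, which allows genes to be compared within a library. With a single group there was no contrast between groups to test, and every value describes these libraries.

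In EHE, a chromosome translocation joins TAZ (gene Wwtr1), a coactivator of the Hippo pathway, to the transcription factor CAMTA1. TAZ has no DNA-binding domain and acts on genes mainly through TEAD factors, and the fusion keeps the TEAD-binding part. Endothelial cells are known by receptors such as VEGFR2 (Kdr), by ETS-family factors and, together with blood stem cells, by the factors Tal1, Lyl1 and Gata2.

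The vehicle cells expressed most of the listed endothelial genes, several of them at high levels. The VEGF receptor gene Kdr and the factors Lyl1, Fli1, Notch1 and Tal1 each had more than 10 FPKM, while von Willebrand factor (Vwf) had 0.149 ± 0.0200 FPKM (SD, n = 3). Levels among all 720 genes ran from 0 to 8029 FPKM with a median of 1.57. A mean of 1 FPKM or more was found for 408 genes, and 153 had 10 or more. At the other end, 143 genes had less than 0.1 FPKM, and 14 had no count in any library. The 14 include Ntrk3, a neurotrophin receptor, for which 3 counts over the group would be 0.000938 FPKM, a limit that covers counting error only.

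**Figure D1:**
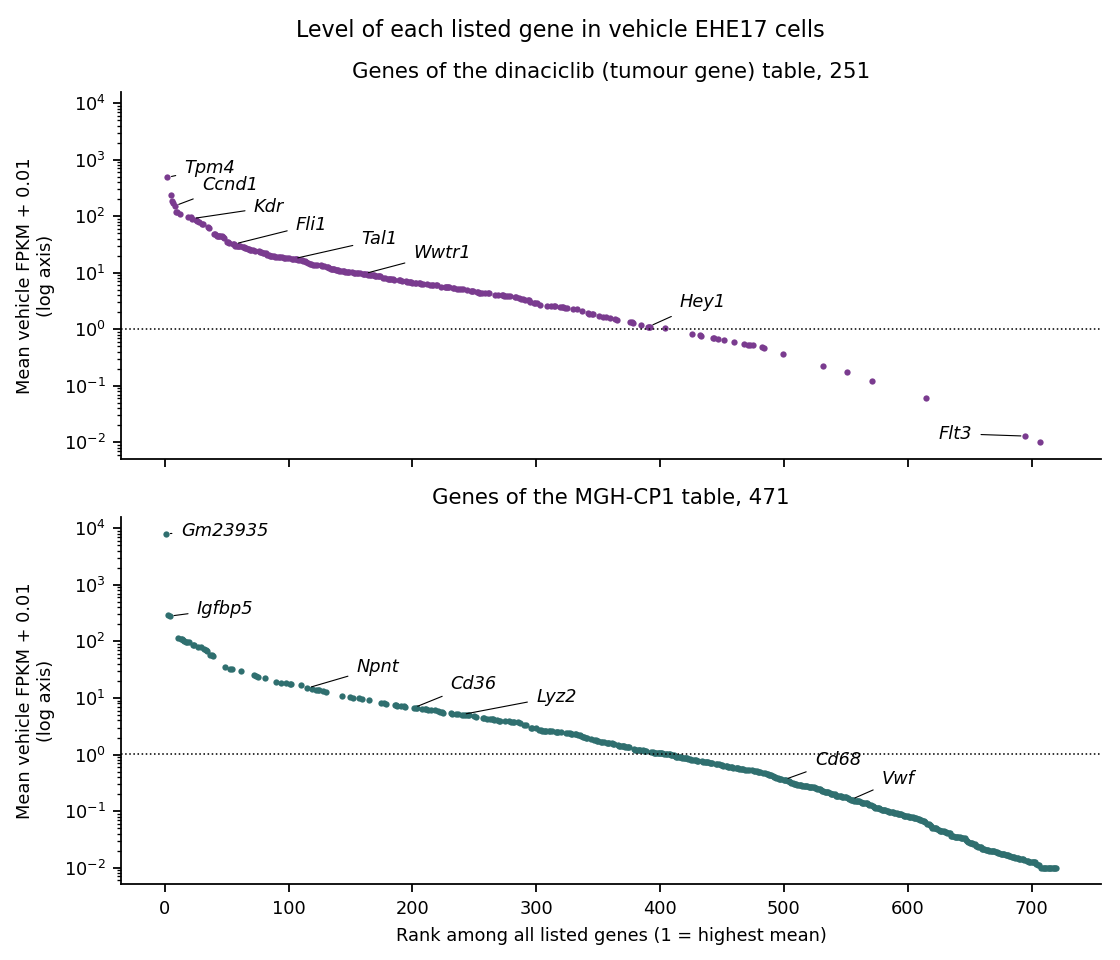
Mean vehicle FPKM plus 0.01 on a log axis against rank among the 720 listed genes, with the dinaciclib table above and the MGH-CP1 table below; each point is 1 gene, the mean of 3 libraries, and the dotted line marks 1 FPKM. Of the 251 genes in the upper panel 230 lie at or above the line, and of the 471 in the lower panel 179 do.

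The level depended on the table a gene came from. The tumour-annotated genes of the dinaciclib table had a median of 8.58 FPKM, with 230 of 251 at 1 FPKM or more. The MGH-CP1 genes had a median of 0.499 FPKM, with 179 of 471 at that level. Gene type differed as well. The 459 protein-coding genes had a median of 3.30 FPKM and the 119 pseudogenes 2.39 FPKM. Of the 60 genes of the annotation class TEC, predicted genes without experimental proof, 52 were below 0.1 FPKM.

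The highest value belonged to Gm23935, a gene of 57 bases on chromosome 16 (11144125 to 11144181, GRCm38) that the tables class as a miRNA. It had 13088, 6095 and 4902 FPKM in replicates 1, 2 and 3, so replicate 1 stood above the other two. Without replicate 1 its mean was 5499 FPKM. A gene this short turns few counts into a high FPKM, and its counts of 23763, 11866 and 11183 are lower than those of Kdr, which averaged 28742. Gm24270 on chromosome 9 (56223715 to 56223771), also among the 20 highest, has the same 57 bases in GENCODE M21, and Gm24187 differs from it at 1 position. Gm24245, which is not among the listed genes, also has the same 57 bases. The sequences of the listed copies are shown because they are identical or nearly so. Whether the counts of these genes can be read separately was not tested. The capital marks the base that differs from Gm23935 (G11A, counted from the 5′ end).
Gm23935: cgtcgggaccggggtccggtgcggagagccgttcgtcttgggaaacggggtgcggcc
Gm24270: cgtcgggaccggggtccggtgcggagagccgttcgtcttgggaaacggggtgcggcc
Gm24187: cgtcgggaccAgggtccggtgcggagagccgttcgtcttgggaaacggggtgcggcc
Gm24270 had 149, 74.5 and 65.3 FPKM, again highest in replicate 1. Its mean count was 188 against 15604 for Gm23935, a ratio of 83.0 between genes of identical sequence. How the counting shared reads between the copies was not tested. Gm24187, on chromosome 13 (9834469 to 9834525), averaged 5.00 counts and 2.64 FPKM.

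Cytoskeletal, chaperone and growth genes filled most of the other high ranks. Of the 20 highest genes, 12 were protein-coding, 4 were pseudogenes and 4 were small, mitochondrial or ribosomal RNA genes. Tpm4, a tropomyosin of actin filaments (chromosome 8, 72134975 to 72153142), had 494, 483 and 474 FPKM. Igfbp5, a secreted binder of insulin-like growth factors (chromosome 1, 72857932 to 72874884), had 318, 261 and 259 FPKM, with replicate 1 above the others. Calr, a calcium-binding chaperone of the endoplasmic reticulum, had 237, 231 and 233. The library ranges of these 3 genes did not overlap.

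Below them stood Msn, a membrane-to-actin linker, at 169 ± 3.59 FPKM (SD, n = 3). Cyclin D1 (Ccnd1) followed at 152 ± 12.9 FPKM. From rank 9 down the order was not resolved. Cnbp, Npm1, Gm3788, Hsp90aa1, Rps27a, Gm6472, Gm10443, Odc1, mt-Tc, Rpl38-ps2, Cdk4 and Gm24270, with means from 118 down to 96.2 FPKM, overlapped each with the next. In all, 13 of the 19 neighbouring pairs among the 20 overlapped. Between 18 and 20 of the 20 stayed among the highest when a library was left out.

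Several of the highest pseudogenes are near copies of coding genes. Of the 119 listed pseudogenes, 110 matched a protein-coding transcript over at least 80% of their length, 100 of them at 95% identity or more. All 24 pseudogenes at 10 FPKM or more had such a match, and 15 of the matches were ribosomal protein transcripts. Gm10443 (108 FPKM) and Rpl38-ps2 (97.5 FPKM) were identical over the match to Rps28 and Rpl38. Gm6472 (109 FPKM) matched Rps7 at 99.4%, and Gm3788 (113 FPKM) matched Tmsb10, which encodes an actin-binding thymosin, at 99.3%. Levels of these pseudogenes are therefore uncertain, since reads of the parent could be counted there.

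The tables list 10 of the 94 genes on the endothelial identity list, and 9 of the 10 had at least 1 FPKM, with a median of 13.3 FPKM. Most of them come from the dinaciclib table, where 91.6% of all genes reached 1 FPKM, and 7 of 7 endothelial genes did, with a median of 19.4 FPKM beside 8.58 for that table. Of the MGH-CP1 genes, 38.0% reached 1 FPKM, and 2 of 3 endothelial genes did. With so few members, these shares say little beyond the tables the genes come from. Their summed level lay between 211 and 213 FPKM in the 3 libraries. Of 7 defining markers looked for first, only Kdr and Vwf are listed, at opposite ends of the range. The check of the label thus rests on 1 marker that was high and 1 that was low.

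Kdr encodes the main signalling receptor for VEGF-A (chromosome 5, 75932827 to 75978458, minus strand). It had 92.3, 91.5 and 87.0 FPKM and ranked 22nd of 720. The 3 libraries stood close together, with a coefficient of variation (CV, SD over mean) of 3.21%. Vwf (chromosome 6, 125546774 to 125686679), which makes the clotting glycoprotein stored in endothelial granules, had 0.141, 0.171 and 0.134 FPKM, or 84.0 counts on average. All 3 libraries were below 0.2 FPKM, and its rank was 554.

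Of the blood and endothelial transcription factors, Lyl1, Tal1, Fli1 and Gata2 were each above 1 FPKM in every library. Cancer-related factors, some of them below 1 FPKM, are given further down. Lyl1, a basic helix-loop-helix factor, had 35.1, 34.1 and 35.0 FPKM. Its relative Tal1 had 16.7, 18.1 and 17.9. Lyl1 was higher in every library, by 1.98 ± 0.109 times (SD, n = 3). Fli1, an ETS factor that activates endothelial genes, had 31.6, 31.7 and 32.7 FPKM, and Gata2, a zinc finger factor of the same network, had 8.81, 8.84 and 9.69. The receptor Notch1 had 19.4, 19.4 and 19.5 FPKM, while its target Hey1 had 1.21, 1.03 and 1.07. The fatty acid transporter Cd36 averaged 6.67 ± 0.503 FPKM, and the thromboxane receptor Tbxa2r 1.41 ± 0.135.

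The start regions of 3 of these genes are shown because they are the receptor and the bHLH pair of the endothelial set. Each runs from 250 bases before to 50 after the RefSeq start (GRCm38.p6), 5′ to 3′ on the gene's strand. For Kdr (chr5:75978406-75978705, minus strand) and Lyl1 (chr8:84701207-84701506, plus strand), capitals mark the ETS core with its flank, CCGGAA, or TTCCGG on the other strand. For Tal1 (chr4:115056176-115056475, plus strand), capitals mark the TEAD element GGAATG, or CATTCC on the other strand.
Kdr: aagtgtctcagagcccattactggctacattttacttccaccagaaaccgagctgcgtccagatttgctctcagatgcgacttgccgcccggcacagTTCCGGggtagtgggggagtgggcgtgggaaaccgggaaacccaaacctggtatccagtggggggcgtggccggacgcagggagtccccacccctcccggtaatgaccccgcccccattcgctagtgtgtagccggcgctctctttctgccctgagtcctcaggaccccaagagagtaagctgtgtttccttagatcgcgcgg
Lyl1: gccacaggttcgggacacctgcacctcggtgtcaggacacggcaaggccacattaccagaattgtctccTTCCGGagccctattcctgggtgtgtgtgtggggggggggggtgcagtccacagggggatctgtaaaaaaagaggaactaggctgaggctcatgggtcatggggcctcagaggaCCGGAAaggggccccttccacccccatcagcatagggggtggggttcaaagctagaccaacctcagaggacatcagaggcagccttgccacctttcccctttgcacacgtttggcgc
Tal1: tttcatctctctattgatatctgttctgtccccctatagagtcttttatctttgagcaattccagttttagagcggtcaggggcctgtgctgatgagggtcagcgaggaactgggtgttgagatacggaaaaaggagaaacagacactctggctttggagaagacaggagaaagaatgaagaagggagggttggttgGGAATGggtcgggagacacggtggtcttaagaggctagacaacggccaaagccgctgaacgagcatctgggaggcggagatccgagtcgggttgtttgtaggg
CCGGAA occurred 1 time in the Kdr window, 2 times in that of Lyl1 and 0 times in that of Tal1. GGAATG occurred 1 time in the Tal1 window and 0 times in the other two, so the marked motif differs between the windows. Of the 5 endothelial genes with a window, 2 held CCGGAA and 1 held GGAATG. Of all 32851 promoter windows of the table, 14.9% hold CCGGAA and 14.7% hold GGAATG on either strand. These are matches of letters and not measured binding sites.

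Promoter windows starting within 500 bases of the annotated gene start were found for 297 of the 459 protein-coding genes. Windows of genes below 1 FPKM were poorer in CpG than those of the other classes, which did not rise further with level. The median ratio of observed to expected CpG was 0.811 in 83 genes at 10 FPKM or more, 0.841 in 118 genes at 1 to 10 FPKM, 0.427 in 96 genes below 1 FPKM, and 0.384 over all windows. The GC box GGGCGG was in 71.1%, 64.4% and 45.8% of these 3 classes, beside 35.7% of all windows. The TATA box TATAAA went the other way, at 4.82%, 5.93% and 12.5%, beside 13.6%. GGAATG was in 8.43%, 12.7% and 7.29% of the classes, with no order by level. CCGGAA was in 22.9%, 22.9% and 12.5%. All motifs were searched on both strands. The 9 interferon-stimulated genes with a window had none with the GC box and a median CpG ratio of 0.270. The classes also differ in which table they come from, so level and table cannot be told apart here.

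**Figure D2:**
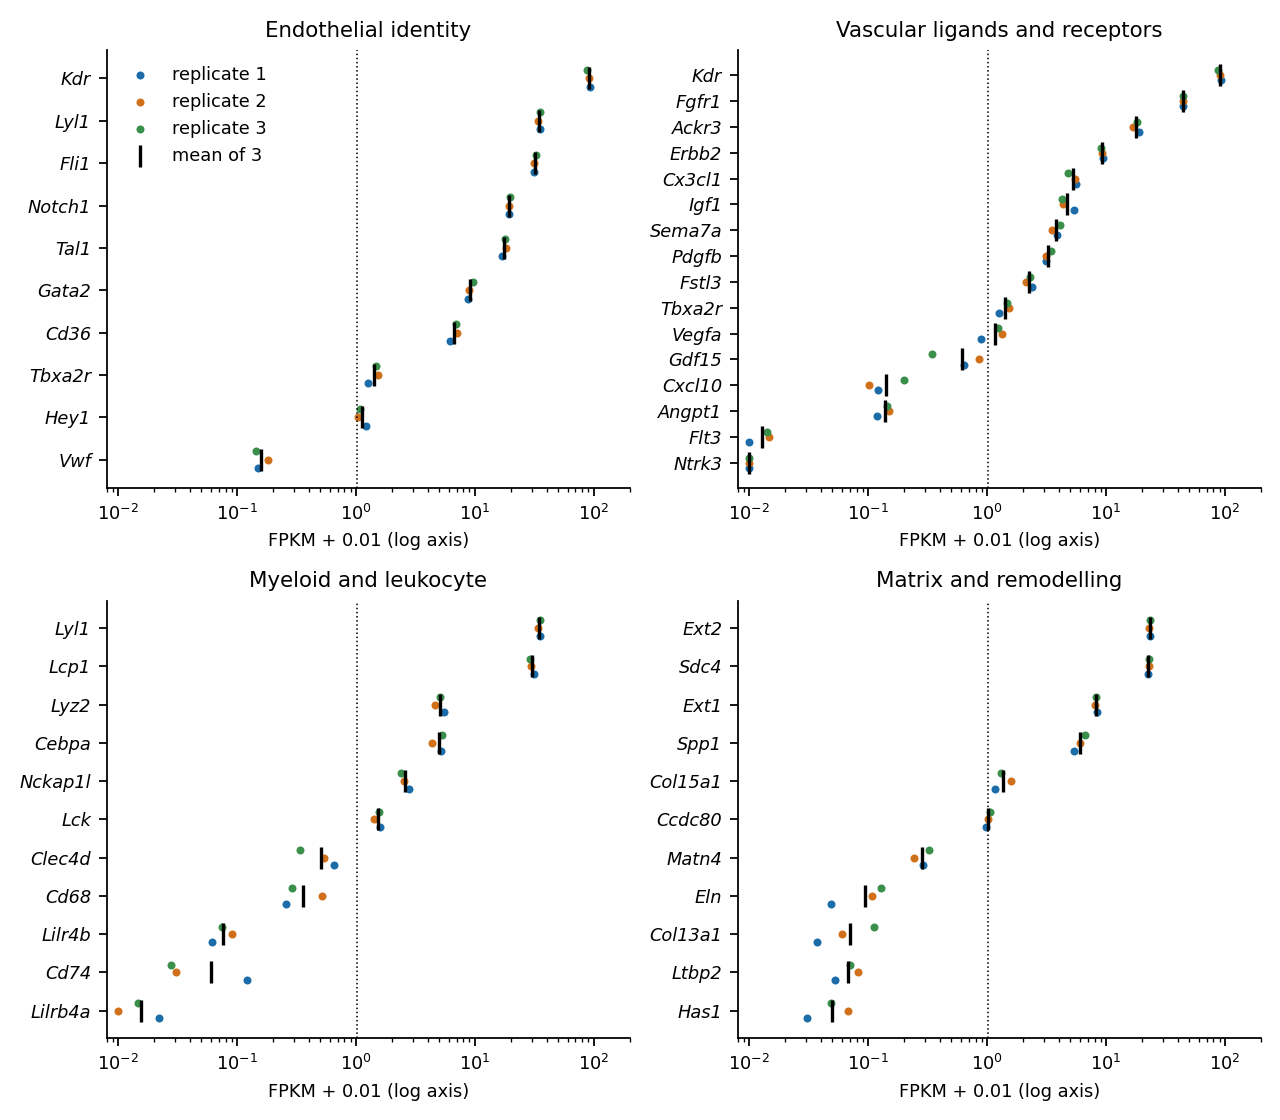
FPKM plus 0.01 on a log axis for every listed member of 4 gene lists; coloured points are the 3 vehicle libraries, the black bar is their mean and the dotted line marks 1 FPKM. The libraries lie close together above 1 FPKM and spread out below it, and 9 of 10 endothelial genes lie above the line.

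Both partners of the fusion were expressed. Wwtr1, the TAZ gene (chromosome 3, 57455649 to 57575910), had 9.30, 9.28 and 10.1 FPKM. Camta1 (chromosome 4, 150917322 to 151861876) had 17.07, 16.82 and 16.96. Camta1 was the higher in every library, by 1.78 ± 0.0842 times (SD, n = 3). A gene-level count does not separate a fusion transcript from the unfused genes, and how reads of the fusion were assigned was not tested. The Hippo regulator Nf2, a tumour suppressor at the cell cortex, had 15.3, 15.0 and 15.3 FPKM. These are the 3 genes of the Hippo list of 40 that the tables hold. All 3 come from the dinaciclib table and had 1 FPKM or more, as did 91.6% of that whole table. Their median was 15.2 FPKM beside its 8.58.

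Receptors held both the highest and the lowest levels among the listed genes of vascular signalling. The highest, Kdr and Fgfr1, come from the dinaciclib table, so the kind of gene and the table cannot be told apart. Of the vascular ligand and receptor list, 16 of 113 genes are listed and 11 had at least 1 FPKM, with a median of 2.74 FPKM. This held for 6 of the 8 from the dinaciclib table, a lower share than the 230 of 251 of all its genes. It held for 5 of the 8 from the MGH-CP1 table, a higher share than the 179 of 471 of all its genes. With so few members and opposite directions, these shares do not set the list apart from the tables. After Kdr came the FGF receptor Fgfr1 with 44.7, 44.8 and 44.6 FPKM, the smallest spread of all genes with at least 100 counts (CV 0.174%). The atypical chemokine receptor Ackr3 averaged 18.0 ± 1.03 FPKM, and Erbb2, a receptor of the EGF family, 9.28 ± 0.200. The receptors Flt3, at 0.00293 FPKM, and Ntrk3, at 0, were at the bottom.

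Among the ligands, the membrane-bound chemokine Cx3cl1 had 5.53, 5.45 and 4.78 FPKM and the growth factor Igf1 had 5.33, 4.33 and 4.28. The semaphorin Sema7a averaged 3.81 ± 0.312 and Pdgfb, which recruits mural cells, 3.23 ± 0.203. Fstl3, an inhibitor of activin, had 2.25 ± 0.141. Vegfa, the ligand of Kdr, had 0.879, 1.33 and 1.24 FPKM, well below its receptor in each library. Angpt1, the ligand of the receptor Tie2, averaged 0.128 FPKM, the chemokine Cxcl10 0.130, and the stress cytokine Gdf15 0.601.

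Downstream, the tables hold 38 of the 122 genes of the kinase and signalling list. All 38 come from the dinaciclib table and had 1 FPKM or more, near the 91.6% of that whole table, with a median of 10.5 FPKM beside its 8.58. Akt1, the survival kinase, had 87.9, 79.7 and 89.2 FPKM, while Akt2 had 4.16, 4.37 and 4.34. Arhgef12, a guanine nucleotide exchange factor, averaged 27.2 ± 0.257 FPKM. Smad4, the shared SMAD of TGF-beta signals, averaged 26.9 ± 1.68, and Smo, the Hedgehog signal transducer, 25.5 ± 0.433. The G protein subunit Gna11 averaged 25.5 ± 0.877 and Bcr 23.8 ± 1.33. Gnas, which encodes another G protein subunit, had 11.7, 6.93 and 12.7 FPKM, with replicate 2 well below the others. Inhibitors of the pathway were lower than Akt1, with Tsc2 at 6.26 ± 0.176 FPKM and Tsc1 at 2.56 ± 0.149.

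Ccnd1 and Cdk4, which drive the G1 phase, were among the 20 highest genes. Of the cell cycle list, 8 of 56 genes are listed, all at 1 FPKM or more, with a median of 17.5 FPKM. The dinaciclib table, where 91.6% of all genes reached 1 FPKM, holds 7 of them, with a median of 16.2 FPKM beside its 8.58. Ccnd1 had 139, 150 and 165 FPKM and its partner kinase Cdk4 had 99.5, 94.6 and 95.4. Ccnd3, the other listed D-type cyclin, had 19.5, 18.0 and 19.0, below Ccnd1 by 8.05 ± 0.803 times (SD, n = 3). Odc1, the first enzyme of polyamine synthesis, averaged 102 ± 6.88 FPKM. The CDK4/6 inhibitor Cdkn2c averaged 16.2 ± 0.857 FPKM, Max, the partner of MYC proteins, 14.4 ± 0.517, and the checkpoint kinase Bub1b 14.3 ± 0.381. Mycn averaged 1.83 ± 0.173.

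Of the list of cancer-related transcription factors, 38 of 122 genes are listed and 33 had at least 1 FPKM, with a median of 8.15 FPKM. The dinaciclib table holds 37 of them, with 89.2% at 1 FPKM or more. Ppp2r1a, a phosphatase scaffold that the list also holds, led with 83.0 ± 4.42 FPKM. Jun, an AP-1 subunit, had 43.7, 44.6 and 47.8 FPKM, and Nfe2l2, the regulator of the antioxidant response, had 46.2, 43.8 and 44.0. The ETS factor Etv4 averaged 33.3 ± 1.03 FPKM, above its relative Etv5 by 2.85 ± 0.133 times. All 5 genes that the tables assign to the ETS family had at least 1 FPKM, with a median of 11.7. Of the zinc finger genes, 4 of 11 of the C2H2 family did, with a median of 0.442. These family counts were not split by table. Since 91.6% of the dinaciclib table and 38.0% of the MGH-CP1 table reached 1 FPKM, family and table cannot be told apart. Hoxa9 (0.758 FPKM), Bcl6 (0.520), Bcl11b (0.215), Esr1 (0.177) and Prdm1 (0.114) were the 5 genes of the cancer factor list below 1 FPKM.

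Chromatin genes, 31 of 96 listed, all come from the dinaciclib table as well. All 31 had 1 FPKM or more and the median was 9.57 FPKM, both near the values of that table. Npm1, a nucleolar histone chaperone, had 118, 114 and 120 FPKM. The chaperone Set averaged 63.7 ± 2.06 FPKM and the cohesin subunit Rad21 43.7 ± 1.04. The H3K4 demethylase Kdm5c averaged 22.1 ± 0.579, above Kdm5a by 4.37 ± 0.0862 times. The menin gene Men1 averaged 18.6 ± 1.11 and the deubiquitinase Bap1 17.6 ± 0.410. Lowest was the acetyltransferase Kat6b at 1.03 ± 0.105 FPKM, below its relative Kat6a by 9.71 ± 0.752 times.

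RNA processing genes, 13 of 31 listed and all from the same table, were likewise above 1 FPKM, with a median of 11.2 and the splicing regulator Hnrnpa2b1 at the top with 95.4, 95.8 and 94.7. In the cytoskeleton and trafficking list 17 of 19 listed genes of 49 were above 1 FPKM. This held for 15 of the 16 genes from the dinaciclib table, near the 91.6% of all its genes. It held for 2 of the 3 from MGH-CP1, beside 38.0% of all genes there. After Tpm4 and Msn, clathrin heavy chain (Cltc) averaged 73.9 ± 3.86 FPKM and Lasp1, an actin-binding adhesion protein, 49.1 ± 1.39.

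DNA repair genes were lower than the table they come from. Of 60 genes, 22 are listed, all in the dinaciclib table, and 15 (68.2%) had at least 1 FPKM beside 91.6% of that table, with a median of 2.78 FPKM beside 8.58. Ercc3, a helicase of nucleotide excision repair, led with 18.6, 18.0 and 18.0 FPKM. The ubiquitin ligase Mdm2 averaged 9.39 ± 0.174 and the mismatch repair gene Msh6 8.83 ± 0.262. Brca2 averaged 0.768 ± 0.0401 FPKM, and Tert, the catalytic subunit of telomerase, 0.578 ± 0.0363. Of the apoptosis list, 8 of 37 genes are listed with a median of 2.95 FPKM. Ddit4, an inhibitor of mTORC1, led with 19.5, 19.3 and 19.0 FPKM, followed by Bcl10 at 9.92 ± 0.247, Bik at 9.84 ± 1.01 and Bcl2 at 4.33 ± 0.417.

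**Figure D3:**
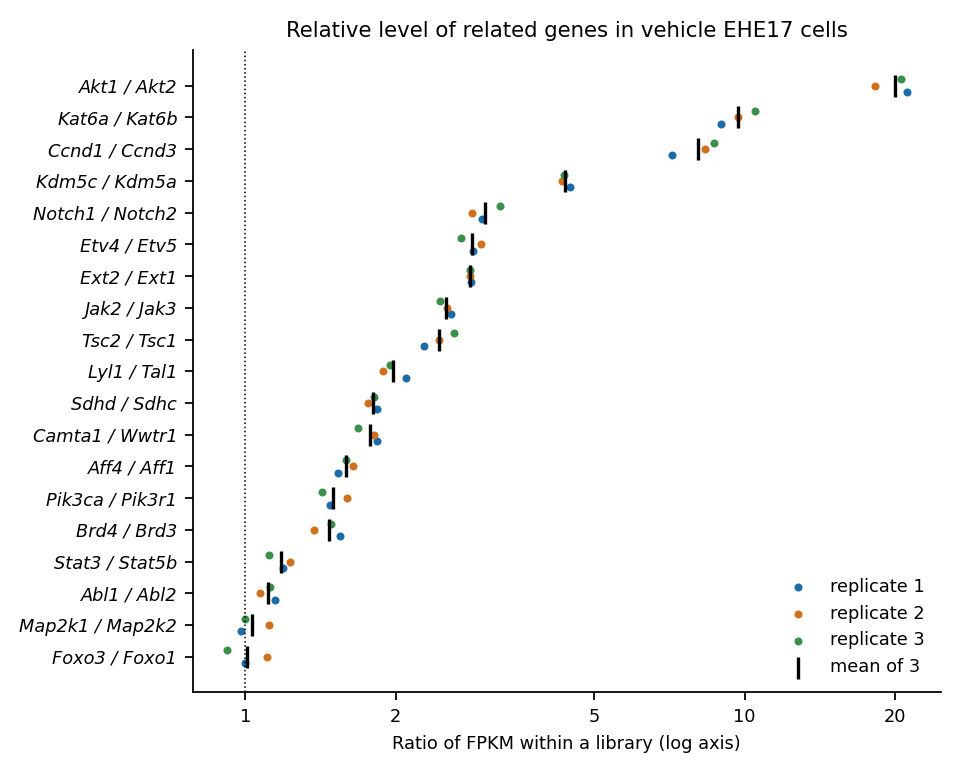
Ratio of FPKM between related or partner genes within each vehicle library on a log axis. Coloured points are the 3 libraries, the black bar is their mean and the dotted line marks equal levels. Akt1 to Akt2 is the widest pair with a mean ratio of 20.0, and the pairs Map2k1 to Map2k2 and Foxo3 to Foxo1 lie at the line.

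Levels of related or partner genes were also set side by side within each library. Of 19 such pairs, chosen after their values were seen, 17 had library ranges that did not overlap, and 9 had a mean ratio of at least 2. The share among pairs of unrelated genes was not computed, so these counts say nothing particular to families. Some pairs are partners and not relatives, such as Camta1 with Wwtr1 and Pik3ca with Pik3r1. Akt1 exceeded Akt2 by 20.0 ± 1.53 times (SD, n = 3). The Notch1 receptor exceeded Notch2 by 3.02 ± 0.198 times. The 2 subunits of the heparan sulfate polymerase differed by a ratio that hardly moved, with Ext2 above Ext1 by 2.82 ± 0.00790 times. The MAP kinase kinases Map2k1 and Map2k2 overlapped, with a ratio of 1.03 ± 0.0723, as did Foxo3 and Foxo1, at 1.01 ± 0.0951.

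Myeloid and leukocyte genes were split. The tables list 11 of 104 genes, of which 6 had at least 1 FPKM, with a median of 1.52 FPKM that is close to the 1.57 of all genes. Of the 5 genes from the dinaciclib table, 4 reached 1 FPKM, with a median of 4.93 FPKM beside 8.58 for that whole table. Of the 6 from the MGH-CP1 table, 2 did (33.3% beside 38.0%), with a median of 0.425 FPKM beside 0.499. The split therefore cannot be told apart from the tables the genes come from. The highest gene of the list, Lyl1, is also on the endothelial list. Lcp1, the actin-bundling plastin of leukocytes, had 31.1, 29.7 and 29.3 FPKM. Cebpa, a factor of granulocyte differentiation, had 5.20, 4.34 and 5.24, and Nckap1l, a subunit of the leukocyte WAVE complex, 2.77, 2.53 and 2.39. The tyrosine kinase Lck averaged 1.52 ± 0.101 FPKM.

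Of the 6 defining myeloid markers, Lyz2 and Cd68 are listed. Lyz2, the lysozyme of macrophages and granulocytes, had 5.53, 4.63 and 5.07 FPKM. Cd68, a macrophage lysosomal protein, had 0.250, 0.512 and 0.278 FPKM, or 15.3 counts on average, and no library reached 1 FPKM. The lectin Clec4d averaged 0.502 FPKM, the receptors Lilr4b and Lilrb4a 0.0657 and 0.00560, and the invariant chain gene Cd74 0.0499. In bulk RNA a few cells with much of a transcript and many cells with little cannot be told apart. The summed level of the list lay between 77.9 and 82.4 FPKM in the 3 libraries.

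Markers of further cell types were few. None of the 24 fibroblast and mural markers, the 17 epithelial markers or the 10 lymphatic markers is among the listed genes, which gives no information on their levels. Of 23 neuronal and glial markers the tables list the guidance receptor gene Neo1, with 4.90 ± 0.302 FPKM, and the pentraxin Nptx1, with 0.902 ± 0.126.

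Of 157 matrix and remodelling genes, 11 are listed and 6 had at least 1 FPKM, with a median of 1.01 FPKM. The levels followed the tables, with a median of 22.7 FPKM for the 3 genes of the dinaciclib table (Ext2, Sdc4 and Ext1) and 0.180 for the 8 of the MGH-CP1 table, so the kind of gene and the table cannot be told apart. Ext2 and Ext1, which polymerise heparan sulfate, had 23.6, 22.8 and 23.2 FPKM and 8.34, 8.06 and 8.24 FPKM. Sdc4, a membrane proteoglycan that carries it, had 22.3, 23.0 and 22.8. The secreted glycoprotein osteopontin (Spp1) had 5.35, 6.02 and 6.67 FPKM, and the basement membrane collagen gene Col15a1 had 1.15, 1.57 and 1.31. Ccdc80 averaged 1.01 ± 0.0346. The remaining 5 were low, among them the cartilage-type matrilin Matn4 at 0.275 ± 0.0411 FPKM and elastin (Eln) at 0.0845 ± 0.0408. Ltbp2, a protein of elastic microfibrils, averaged 0.0583 FPKM and the hyaluronan synthase Has1 0.0393. The transmembrane collagen Col13a1 averaged 0.0604 FPKM over 10.3 counts, and 0.0391 without replicate 3.

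The listed interferon-stimulated genes were mostly low, as were most genes of the table they come from. Of 53 genes, 12 are listed, all in the MGH-CP1 table. At least 1 FPKM was found for 4 of them (33.3%), near the 38.0% of that table. Their median was 0.886 FPKM beside 0.499. Isg15, the ubiquitin-like modifier, had 6.60, 10.3 and 7.93 FPKM, Rtp4 averaged 2.00 ± 0.281, the GTPase Iigp1 1.36 ± 0.247 and the ISG15 protease Usp18 1.08 ± 0.142. Below 1 FPKM stood Ifit3 (0.957), Rsad2 (0.911), Cmpk2 (0.860), Oas1a (0.723), Ifit1 (0.723), Ifit3b (0.333), Oasl2 (0.212) and Cxcl10 (0.130). The median CV was 23.2%, near the 21.8% of all genes at 10 to 100 counts, a depth at which 6 of the 12 lie. Replicate 1 had the lowest sum, 14.4 FPKM, against 19.9 and 18.4. Cmpk2 was lowest in replicate 1, with 0.551, 0.865 and 1.16 FPKM.

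Genes of the unfolded protein and ATF4 responses spanned a wide range. Of 36 genes, 8 are listed with a median of 3.19 FPKM. The 3 from the dinaciclib table had a median of 44.7 FPKM, beside 8.58 for that whole table. The 5 from the MGH-CP1 table had 0.601 FPKM, beside 0.499, so the kind of gene and the table cannot be told apart. After Calr came the oligosaccharyltransferase subunit Rpn1 at 44.7 ± 0.817 FPKM and Herpud1, of protein degradation at the endoplasmic reticulum, at 11.9 ± 0.313. The amino acid and folate genes lay lower, with Mthfd2 at 5.52 ± 1.15, the cystine transporter Slc7a11 at 0.871 ± 0.157, and Gdf15 as above.

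Of the mitochondrial list 10 of 52 genes are listed, and 9 had at least 1 FPKM. This held for all 4 from the dinaciclib table, beside 91.6% of all its genes. It held for 5 of the 6 from MGH-CP1, beside 38.0% of all genes there. With so few members, these shares say little. Cysteine tRNA (mt-Tc) averaged 98.4 ± 11.2 FPKM, the small ribosomal RNA mt-Rnr1 87.3 ± 9.28, and the complex I subunit Ndufa1 57.0 ± 4.87. The complex II anchors Sdhd and Sdhc averaged 48.3 ± 1.98 and 26.8 ± 0.561, and the aldehyde dehydrogenase Aldh2 45.2 ± 1.23. Ribosomal and translation genes are represented by 4 of 27. Rps27a had 97.8, 159 and 73.8 FPKM, with replicate 2 far above the others, while Rpl22 had 83.8, 77.5 and 77.2. The initiation factor Eif4a2 averaged 17.3 ± 1.43 and Rpl24 1.05 ± 0.440.

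The authors' tumour annotation placed 136 of the 251 dinaciclib-table genes with a blood cancer and 23 with a sarcoma. The blood cancer genes had a median of 7.25 FPKM and the 115 others 9.39. The sarcoma genes had a median of 9.39 FPKM, with 21 of 23 at 1 FPKM or more, and the 228 others had 8.31 FPKM, with 209 at that level. In the same column, 4 genes are assigned to a vascular tumour, namely Kdr (90.3 FPKM), Camta1 (16.95), Wwtr1 (9.56) and Vhl, the oxygen-sensing ubiquitin ligase (8.68 ± 0.306), and all 4 were at least 8 FPKM.

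The spread between replicates was small where counts were high. Over the 582 genes with a mean count of at least 10, the median CV was 8.51%, against 6.45% from counting alone (1 over the square root of the mean count), and 177 genes (30.4%) were at or below that limit. The median CV was 21.8% at 10 to 100 counts, 8.43% at 100 to 1000, 3.06% at 1000 to 10000, and 2.67% in 24 genes above that, where counting alone gives 0.802%. Replicates 1, 2 and 3 were the highest in 210, 199 and 173 of these genes. At 100 counts or more replicate 1 was the highest more often, in 147 genes against 107 and 104. Among the 36 pseudogenes of that depth it was the highest in 18, against 7 and 11, and among the 26 MGH-CP1 genes at 1000 counts or more in 16, against 7 and 3. The counts of every pair of libraries differed by more than sampling noise, with a chi-square of 11.9 to 55.2 times its degrees of freedom, so none was a second copy of another. That comparison does not separate cultures from library preparation.

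**Figure D4:**
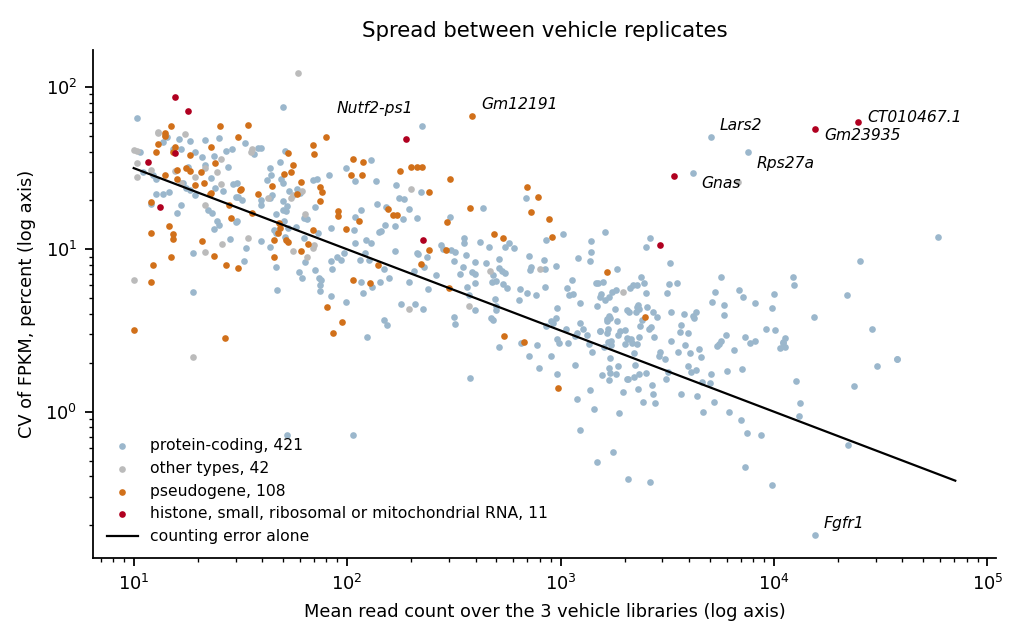
CV of FPKM over the 3 vehicle libraries against mean read count for 582 genes with a mean count of at least 10, both on log axes; colours give the gene type and the line is the CV from counting error alone. The CV falls as counts rise, and Gm23935, CT010467.1, Lars2, Rps27a and Gnas lie far above it.

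The steadiest genes with at least 100 counts were Fgfr1, Notch1, the H3K36 methyltransferase Setd2, the GMP synthetase Gmps, the spindle protein Numa1, the elongation factor Ell, Zfp384, Hnrnpa2b1, Camta1 and Nol4. Notch1 had a CV of 0.352% and Camta1 of 0.715%. All 10 had a CV below that from counting alone, such as 0.174% against 0.801% for Fgfr1 and 0.723% against 9.70% for Nol4, so their order among the 358 genes of that depth is within counting error.

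The 10 most uneven genes of that depth included 3 small or ribosomal RNA genes and 3 pseudogenes, beside Rps27a and Cmpk2 given above. CT010467.1, a ribosomal RNA gene on chromosome 17 (39846353 to 39848827), had 505, 225 and 163 FPKM, highest in replicate 1, and 194 FPKM on average without it. Gm12191, a pseudogene that matches Rpl30 at 99.7% (chromosome 11, 49678710 to 49679057), had 57.5, 20.0 and 20.1 FPKM, and 20.1 without replicate 1. Lars2, the mitochondrial leucyl-tRNA synthetase, had 20.9, 10.7 and 8.57. Nutf2-ps1 was high in replicate 2, with 4.29, 12.1 and 5.61, and Gm1943 had 18.9, 23.2 and 10.8. The pseudogene Gm6274 had 5.67, 4.56 and 2.73.

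The list of poly(A)-poor and structural RNA, 16 of 80 genes listed, summed to 617, 327 and 260 FPKM in replicates 1, 2 and 3. CT010467.1 made up most of each sum. The mitochondrial mt-Rnr1, also on this list, followed the same order with 97.8, 83.6 and 80.4 FPKM. Malat1, a nuclear long RNA, had 9.46, 17.02 and 14.3 FPKM, lowest in replicate 1. The small nuclear RNA Rn7sk had 2.75, 0.442 and 0.981, and 0.712 on average without replicate 1. Of the 12 histone genes listed none reached 1 FPKM, led by Hist1h4k at 0.660 ± 0.0586. The part of RNA selection in the high ribosomal RNA of replicate 1 was not tested.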

How the data were processed

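RNA sequencing data of 3 vehicle libraries were taken from 2 gene tables. Per the labels' protocols these are biological triplicates, and messenger RNA was captured with poly-T beads and copied with random primers. Nothing more is said of separate cultures, so the spread may be partly technical. The submitters' processing notes name HISAT2 2.0.5, a read aligner, fastp, the counter featureCounts 1.5.0-p3, and DESeq2 1.20.0. A genome build is not given in the sources used here. GRCm38 was assumed for coordinates, because GENCODE M21 holds all 720 gene identifiers and gives 704 of them identical bounds.

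Per the file headers, the authors deposited raw read counts, FPKM, a normalised signal (count over 1 size factor per library) and the gene length. Each library's total count was recovered from count, FPKM and length, and 100% of values gave it within 0.01%. The 18 columns of treated libraries were not read. For the 2 shared genes 0 values differed between tables.

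From the deposited FPKM the mean, SD and CV over 3 libraries were computed with Python 3.11.15, numpy 2.4.6 and pandas 2.3.3. The CV was used for genes with a mean count of at least 10. The CV script was tested on simulated data. Pseudogenes were aligned to coding transcripts of GENCODE M21 with BLAST 2.17.0. Promoter sequences are from RefSeq (GRCm38.p6).

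Genes were grouped by 22 lists, of which 261 listed genes are members. Named are the 20 highest genes, the members of the endothelial, vascular, myeloid, matrix, Hippo, interferon and marker lists, up to 6 of every other list, and the 10 largest and 10 smallest CVs at 100 counts or more. A few genes under this rule are not reported here. Further genes and the 19 pairs were chosen after their values were seen. The members and lists were chosen with earlier results of these data known. Alternatives were the authors' size factors, count minimums, gene type, each table alone, each library left out and other level thresholds.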

Additional observations from a re-analysis of the deposited data

How the results depend on the processing

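The results turned on which genes are counted more than on the library scale. With the authors' size factors a library moved by at most 0.33%. The median level of 1.57 FPKM became 3.31 at a mean count of 10 or more, 7.76 at 100 or more, 3.30 for protein-coding genes, 0.499 for the MGH-CP1 table alone and 8.58 for the dinaciclib table alone. The median CV of 8.51% became 4.64% at 100 counts or more, 17.6% for the MGH-CP1 table, 3.36% for the dinaciclib table and 4.38% as the SD of log2(FPKM + 1). Of the 408 genes at 1 FPKM or more, there were 179 in the MGH-CP1 table alone and 230 in the dinaciclib table alone. The MGH-CP1 table alone gave 2 endothelial, 2 myeloid, 3 matrix and 5 vascular genes at that level, and the dinaciclib table alone 3 matrix and 6 vascular genes. For each of 146 named genes, size factors moved the mean by less than 1 SD. Leaving out 1 library moved the mean by over 1.5 times for Rn7sk, Gm12191, Col13a1 and CT010467.1, and by less for the others. No paired analysis was possible because the result comes from no test and there is 1 group. Below 10 counts, as for Lilrb4a, Flt3 and most histone genes, levels rest on single reads.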

Other observations

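Some high genes were on none of the 22 lists and were chosen after their values were seen. Apart from Igfbp5, Cnbp and Hsp90aa1, already given, Sh2b3, an adaptor that restrains cytokine receptor signals, had 64.6, 62.1 and 61.8 FPKM. Crlf2, a cytokine receptor chain for thymic stromal lymphopoietin, had 27.9, 29.8 and 31.7 FPKM. S100a13, a small calcium-binding protein, had 79.3, 69.7 and 69.6 FPKM. All 3 libraries of each were above 25 FPKM, against a median of 0.684 for the 459 listed genes outside the lists.

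Further genes outside the lists, also chosen after their values were seen, were lower. Npnt, an integrin ligand of basement membranes, had 16.8, 14.5 and 13.4 FPKM. The metalloprotease Tll1 averaged 5.03 ± 0.428 FPKM (SD, n = 3) and the ephrin receptor Ephb1 4.90 ± 0.434. The killer cell lectin-like gene Klri1 had 6.63, 6.88 and 5.13 FPKM, and Ltc4s, the leukotriene C4 synthase, averaged 3.30 ± 0.178.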
